A study of Mus musculus with 7 samples.

Results

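The C/EBP factors and the PAR bZIP factors are DNA-binding proteins of the basic leucine zipper class that carry much of the gene program of the adult liver. The 9 genes described here are the C/EBP genes Cebpa, Cebpb, Cebpd and Cebpg, the PAR bZIP genes Dbp, Hlf and Tef, the gene of their repressor Nfil3, and Creb3l3, which encodes CREBH. They were chosen by name, and all 17 probe sets annotated to them among the 45037 probe sets of the array other than controls were used. For tests per gene, the brightest probe set on average stood for each gene, as it did for all 18193 genes of the table.

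As background, C/EBPα drives metabolic genes of the hepatocyte and restrains its division, and C/EBPβ and C/EBPδ are induced by inflammation, by hormones and after liver injury. DBP, HLF and TEF bind a shared sequence, the D-box, and are outputs of the circadian clock in the liver, where they control genes of drug and bile acid metabolism. NFIL3 binds the same site as a repressor. CREBH is held in the membrane of the endoplasmic reticulum, and when it is released it activates acute phase genes and genes of lipid transport.

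RNA was measured on 7 Affymetrix mouse expression arrays of cells from C57BL/6J mice (C57BL/6 in the strain label) that had no treatment other than their culture. The iHepSCs are induced hepatic stem cells made from mouse embryonic fibroblasts with lentiviruses that carry Oct4 and Hnf4α in an SFFV vector, and were measured once at passage 3 (P3) and once at passage 20 (P20). They were grown in a hepatocyte medium with dexamethasone, nicotinamide, HGF and EGF after mechanical isolation of clones. The study chose its clone iHepSC-C3 for detailed work after comparing clones. If both arrays are of that clone, which the sources used here do not state, their spread lies within 1 line. The pHep array, 1 in all, is of primary hepatocytes from 6-week-old male mice, isolated by collagenase perfusion. By the study's methods they were plated and incubated for some hours before RNA was taken. The labels place them in the same medium as the iHepSCs, whereas the study's methods name Williams' medium E with antibiotics and L-glutamine. The 4 MEF arrays are of the unmodified fibroblasts from mid-gestation embryos, grown in a DMEM medium with serum. Cell type and medium therefore cannot be told apart between MEFs and the other groups. No source says whether the replicates were separate cultures, and p-values here speak of the spread among these arrays, part of which can be technical. The 1 pHep array gives no spread of its own and is assumed to vary like the MEF and iHepSC arrays. P-values and intervals for pHep therefore do not measure variation between hepatocyte samples.

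The sequences before the start sites are shown first for 3 of the genes, since they hold matches to some of the short motifs searched for. RefSeq (GRCm38.p6) gave start sites for 8 of the 9 genes (not Cebpd), with 10 windows of 250 bases in all, and both strands were searched for 5 motifs. These were the C/EBP site TTGCNNAA (in 9.6% of 32851 mouse windows of that length) and TTANNTAA, a loose form of the D-box (5.4%). Next came the E-box CACGTG that clock factors bind (6.0%) and the core TGACG of the element that CREB factors and CREBH bind (17.8%). The last was the core AGGTCA of the element that ROR and REV-ERB factors bind (14.0%). In the lines below the capitals mark these motifs, and each sequence runs 5′ to 3′ on the strand of the gene.
Cebpb: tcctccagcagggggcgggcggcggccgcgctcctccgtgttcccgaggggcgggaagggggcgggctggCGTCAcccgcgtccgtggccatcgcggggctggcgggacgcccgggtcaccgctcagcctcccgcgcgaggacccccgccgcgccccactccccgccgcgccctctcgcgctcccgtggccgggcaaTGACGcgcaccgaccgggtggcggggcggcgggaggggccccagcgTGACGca
Hlf: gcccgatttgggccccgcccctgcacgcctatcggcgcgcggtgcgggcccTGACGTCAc
Tef: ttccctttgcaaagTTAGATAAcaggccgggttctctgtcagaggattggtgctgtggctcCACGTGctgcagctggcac
The Cebpb line is chr2:167688665-167688914 (plus strand) and ends at the base before the start site, with 3 TGACG cores, 1 of them on the other strand. The Hlf line is chr11:90390918-90390977 (minus strand) and ends at the base before the start, with 2 such cores, 1 on each strand, that overlap in TGACGTCA. The Tef line is chr15:81802485-81802564 (plus strand) and ends 109 bases before the start. It holds an E-box and the stretch TTAGATAA, which matches the loose pattern TTANNTAA. That pattern leaves the middle bases free, so the stretch is not called a D-box here. A 2nd start site of Tef inside the gene had an E-box too. Of the 8 genes, 4 had the core TGACG (Cebpb, Hlf, Nfil3 and Creb3l3) and 2 had the ROR core (Nfil3 and Creb3l3). The loose D-box pattern was in 1, an E-box in 1 and the C/EBP site in 0. A match is a description of these letters and not a binding site, and Cebpa, Cebpg and Dbp had no match in the windows searched.

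The arrays differed in ways that touch the results. MEF replicate 1 correlated with the other MEF arrays at 0.960 to 0.961, against 0.997 among replicates 2 to 4 themselves. On MEF replicate 1, 11 of 11 cell division genes were below the other MEF arrays (median log2 difference -2.96), 8 of 12 macrophage markers were above all of them (median 0.53) and 10 of 12 fibroblast markers were above them (median 0.83). So were 10 of 14 immediate early and stress genes, 10 of 16 clock genes and 7 of 10 CREB3 family and endoplasmic reticulum stress genes. Of neutrophil markers 4 of 9 were, and of liver endothelial and stellate markers 4 of 10. The share of all genes above them by any margin was not counted, and 17.6% were at least 0.5 above each. As replicate 1 stood apart, the counts of the 9 genes and of the lists are also given without that array. Of 12 markers of Kupffer cells and macrophages, 10 were higher on pHep than in MEFs by limma, where 14.8% of all genes were. Lyz2 led the list at a log2 level of 13.45. The count was 10 higher and 1 lower without MEF replicate 1, but 6 higher without MEF replicate 2 or 4 or either iHepSC replicate, 6 after Gapdh centring of all arrays and 4 with MEF replicates 2 to 4 averaged as 1 sample. Clec4f, which marks Kupffer cells, was at 6.08 on pHep, below its 6.46 to 6.75 on the MEF arrays. Other markers of the list stood far higher on pHep, with Cd163 at 11.15, Vsig4 at 11.57 and Marco at 9.24. Their MEF means were 3.87, 5.31 and 5.15. The log2 of the summed level of these 12 markers was 9.90 and 9.85 on the iHepSC arrays, 14.65 on the pHep array and 11.05 to 12.68 on the MEF arrays. C/EBP genes are also active in macrophages. Of 14 immediate early and stress genes, 6 were higher and 0 lower on pHep than in MEFs (14.8% and 15.5% of all genes). The counts were 10 and 0 without MEF replicate 1 (27% and 31.6%), and 4 were higher without any 1 of the other MEF arrays. Of 12 fibroblast markers, 10 were lower on pHep than in MEFs, and 6 were lower in iHepSCs than on pHep (7.89% of all genes). The part of macrophages, of fibroblasts or of such stress genes in the pHep levels was not tested. As a check of the labels, Alb was at 13.74 and 14.39 on the iHepSC arrays, 15.13 on pHep and 5.35 to 5.89 on the MEF arrays, and of 10 hepatocyte markers 3 were at a log2 level of at least 10 on each iHepSC array, 9 on pHep and 0 on each MEF array. The hepatocyte marker at a low level on pHep was Cyp2e1, at 5.11, against 5.22 to 5.52 on the MEF arrays.

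Most of these factors were at their highest level on the pHep array by the brightest probe set. Dbp and Tef had a higher mean in iHepSCs than on pHep, though neither difference was past the test with all arrays. Of the 9 genes, 3 were higher in iHepSCs than in MEFs (Cebpa, Cebpg and Tef; limma, adjusted p under 0.05), where 18.2% of all genes were higher, and 0 were lower, where 13.4% of all genes were. At an unadjusted p under 0.05 there were 6 higher and 1 lower. On the pHep array 5 were higher than in MEFs (Cebpa, Cebpg, Hlf, Nfil3 and Creb3l3), against 14.8% of all genes, and 0 were lower, against 15.5%; at an unadjusted p under 0.05 there were 7 higher and 0 lower. Between iHepSCs and pHep, 4 were lower in iHepSCs (Cebpa, Cebpd, Hlf and Creb3l3), against 7.89% of all genes, and 0 were higher, against 9.26%, and at an unadjusted p under 0.05 there were 5 lower and 0 higher. Without MEF replicate 1 the counts were 6 higher and 1 lower for iHepSCs against MEFs (31.0% and 24.8% of all genes), 8 higher and 0 lower for pHep against MEFs (27.0% and 31.6%), and 1 higher and 6 lower for iHepSCs against pHep (25.4% and 17.3%). Without iHepSC replicate 2 (P20), 1 of the 9 was higher in iHepSCs than in MEFs (10.1% of all genes), and without iHepSC replicate 1 (P3), 2 were lower in iHepSCs than on pHep (4.83%). With each array centred on Gapdh, whose own level was 0.49 lower in iHepSCs than in MEFs, 6 were higher in iHepSCs than in MEFs (25.0% of all genes) and 2, Cebpa and Creb3l3, were lower than on pHep (3.39%). With MEF replicates 2 to 4 averaged as 1 sample, Cebpa alone was higher in iHepSCs (8.34% of all genes), and 3 were higher on pHep (6.82%).

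**Figure D1:**
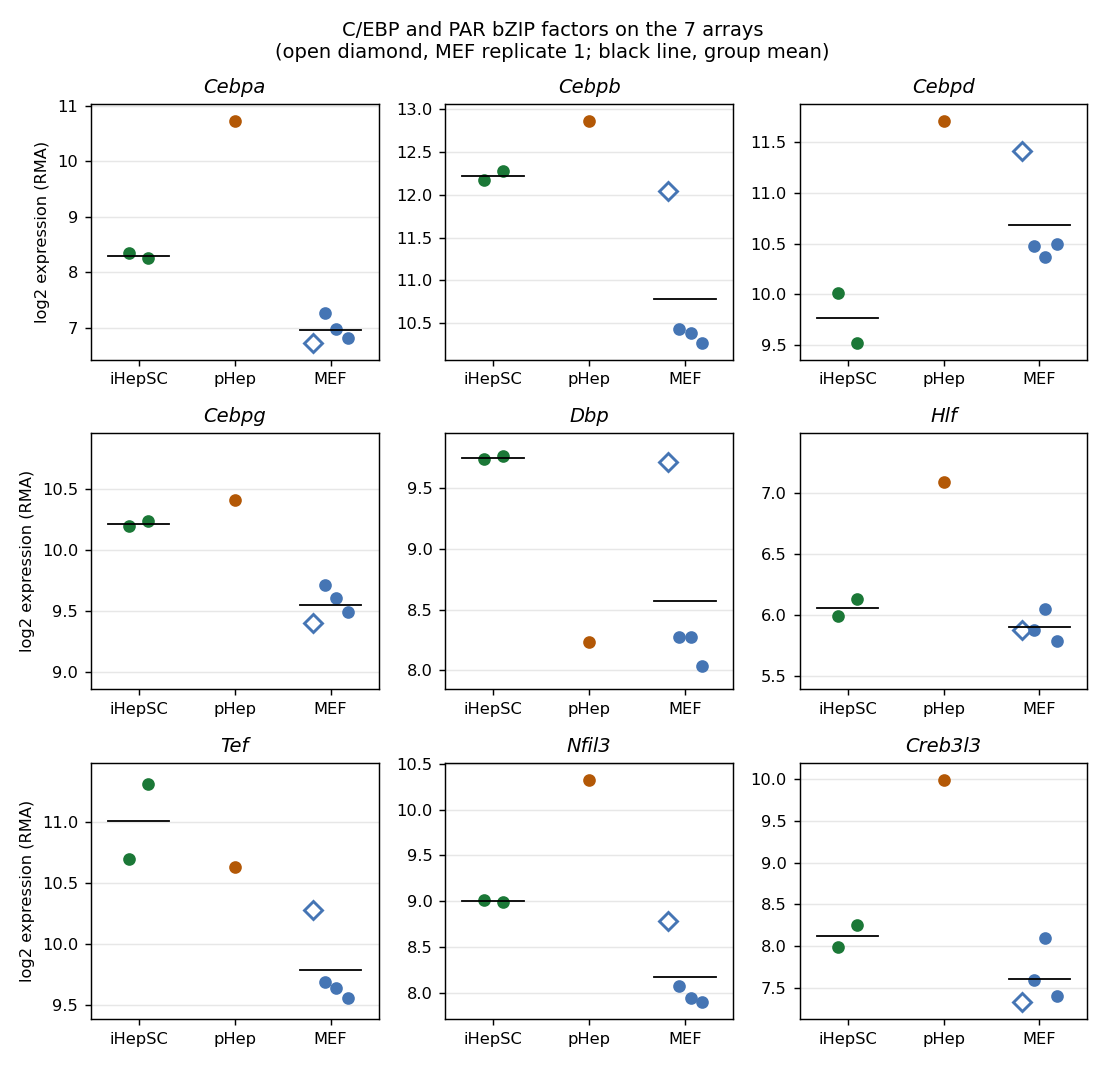
Log2 expression levels (vertical axes, RMA values) of the 9 genes on the 2 iHepSC arrays (P3 left, P20 right), the pHep array and the 4 MEF arrays, each gene read by 1 probe set, with black lines at the means of iHepSC and MEF and an open diamond for MEF replicate 1. The diamond lies near the iHepSC points for Cebpb, Dbp and Nfil3, and with the other MEF points for Cebpa, Cebpg, Hlf and Creb3l3.

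Cebpa (chr7:35119293-35121928), the C/EBP gene most tied to the mature hepatocyte, was graded over the 3 cell types. Its log2 level was 8.35 at P3 and 8.25 at P20 in iHepSCs, 10.73 on pHep, and 6.74, 7.28, 6.98 and 6.83 on MEF replicates 1 to 4. The groups did not overlap, and MEF replicate 1 was the lowest of all arrays. Cebpa averaged 8.30 ± 0.07 (SD, n = 2) in iHepSCs and 6.96 ± 0.24 (SD, n = 4) in MEFs, a log2 difference of 1.35 (standard error 0.17, 2.54-fold, limma adjusted p = 0.00163). On pHep it was 3.77 above MEFs (standard error 0.22, 13.7-fold, adjusted p = 8.28e-05). It fell short of pHep in iHepSCs by a difference of -2.43 (95% interval -3.00 to -1.85, adjusted p = 0.00106), and all 3 results were still past the test without any 1 of the MEF or iHepSC arrays.

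Cebpb (chr2:167688915-167690432), an intronless gene whose long and short proteins are made from 1 mRNA and are not told apart by an array, had the least settled MEF level. It was at 12.17 and 12.28 in iHepSCs, 12.86 on pHep, and 12.04, 10.43, 10.39 and 10.27 in MEFs. MEF replicate 1 lay 1.68 above the mean of the other 3 MEF arrays and 0.18 below the mean of iHepSCs. With all arrays the differences from MEFs were 1.44 for iHepSCs (95% interval 0.18 to 2.70, adjusted p = 0.0845) and 2.08 for pHep (0.45 to 3.71, adjusted p = 0.0612), neither past the test. Without MEF replicate 1 they were 1.86 (1.65 to 2.07, adjusted p = 3.03e-06) and 2.50 (2.24 to 2.76, adjusted p = 3.24e-06). The iHepSC level was 0.64 below pHep, and this difference passed the test only without MEF replicate 1, which widens the spread shared by all comparisons (adjusted p = 0.62 with it and 0.00449 without it). A 2nd Cebpb probe set gave the same picture, with 10.65 and 10.59 in iHepSCs, 11.63 on pHep, and 10.33, 8.57, 8.79 and 8.55 in MEFs (pHep against MEFs 2.57, adjusted p over all probe sets = 0.037).

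Cebpd (chr16:15887286-15889545), the C/EBP gene best known from the acute phase response, was the 1 member whose iHepSC arrays lay below every MEF array. It was at 10.01 and 9.53 in iHepSCs, 11.71 on pHep, and 11.42, 10.47, 10.37 and 10.49 in MEFs. The pHep level was above all others, with MEF replicate 1 next to it. iHepSCs were lower than pHep by a difference of -1.94 (95% interval -3.08 to -0.80, adjusted p = 0.0381), which was past the test with all arrays but not without any 1 of MEF replicates 2 to 4 or of the iHepSC replicates (adjusted p from 0.067 to 0.16). Against MEFs the iHepSC difference was -0.92 (-1.73 to -0.11, adjusted p = 0.0859), or -0.68 without MEF replicate 1 (adjusted p = 0.00616). The 2nd Cebpd probe set, far dimmer, had 6.40 and 6.37 in iHepSCs, 6.17 on pHep and 6.67, 7.09, 7.13 and 6.72 in MEFs, and so did not show the high pHep level of the first.

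Cebpg (chr7:35046422-35056566) encodes C/EBPγ, a dimer partner of the other C/EBP proteins that lacks an activation domain, and it was the steadiest of the C/EBP genes. It was at 10.19 and 10.24 in iHepSCs, 10.41 on pHep, and 9.40, 9.71, 9.60 and 9.49 in MEFs, with no overlap between MEFs and the others. The rise over MEFs was 0.66 in iHepSCs (standard error 0.12, 1.58-fold, adjusted p = 0.00702) and 0.86 on pHep (standard error 0.15, 1.81-fold, adjusted p = 0.0083). Without 1 of the iHepSC arrays the first of these had an adjusted p of 0.0516 or 0.0648. iHepSCs and pHep differed by -0.20 (95% interval -0.60 to 0.21, adjusted p = 0.492), or by 0.26 with each array centred on Gapdh. A dimmer Cebpg probe set had 6.03 and 6.09 in iHepSCs, 6.92 on pHep and 5.64, 5.28, 5.73 and 5.26 in MEFs (pHep against MEFs 1.45, adjusted p over all probe sets = 0.00488). The other had 9.08 and 9.12 in iHepSCs, 9.36 on pHep and 9.06, 8.68, 8.58 and 8.64 in MEFs, where neither iHepSCs nor pHep passed the test against MEFs (adjusted p = 0.152 and 0.0657). All 3 probe sets thus had every MEF array below the iHepSC arrays and pHep above both.

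Among the PAR bZIP activators, Dbp (chr7:45705100-45710203), whose transcript swings widely over the day in liver, had its highest levels in iHepSCs and on MEF replicate 1. It was at 9.73 and 9.76 in iHepSCs, 8.24 on pHep, and 9.71, 8.27, 8.27 and 8.03 in MEFs. MEF replicate 1 was within 0.04 of the mean of iHepSCs, and pHep was within the range of the other MEF arrays. With all arrays no Dbp comparison passed the test: the differences were 1.17 for iHepSCs against MEFs (95% interval 0.02 to 2.33, adjusted p = 0.116), -0.33 for pHep against MEFs (-1.82 to 1.15, adjusted p = 0.705) and 1.51 for iHepSCs against pHep (-0.12 to 3.14, adjusted p = 0.197). Without MEF replicate 1, Dbp was higher in iHepSCs than in MEFs by 1.55 (1.32 to 1.79, adjusted p = 1.40e-05) and than on pHep by 1.51 (1.19 to 1.83, adjusted p = 0.00016), whereas pHep and MEFs differed by 0.0445 (-0.26 to 0.35). The other Dbp probe set had 8.70 and 8.53 in iHepSCs, 7.05 on pHep and 8.58, 7.25, 7.21 and 7.04 in MEFs.

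Hlf (chr11:90336535-90390917) was set apart on pHep only. It was at 5.99 and 6.13 in iHepSCs, 7.09 on pHep, and 5.88, 5.87, 6.05 and 5.79 in MEFs, where iHepSCs and MEFs overlapped. The pHep level was 1.19 above MEFs (standard error 0.14, 2.29-fold, adjusted p = 0.00192), and iHepSCs were below pHep by -1.03 (95% interval -1.42 to -0.65, adjusted p = 0.00689). The difference of iHepSCs from MEFs was 0.16 (-0.11 to 0.43, adjusted p = 0.346). The 2nd Hlf probe set had 4.82 and 4.997 in iHepSCs, 6.97 on pHep and 4.83 to 5.08 in MEFs, with a pHep difference from MEFs of 2.02 (adjusted p over all probe sets = 0.000254).

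Tef (chr15:81802673-81826863) had its highest mean in iHepSCs by its brightest probe set, but not by its other probe sets. Its brightest probe set was at 10.70 at P3 and 11.32 at P20, 10.63 on pHep, and 10.28, 9.69, 9.64 and 9.56 in MEFs. iHepSCs were higher than MEFs by 1.22 (standard error 0.26, 2.33-fold, adjusted p = 0.0155), or by 0.91 with P3 alone (adjusted p = 0.131) and 0.33 with the mean of the 3 Tef probe sets (adjusted p = 0.122). pHep was 0.84 above MEFs (95% interval 0.01 to 1.67, adjusted p = 0.112), or 1.00 without MEF replicate 1 (adjusted p = 0.00638). iHepSCs and pHep differed by 0.38 (95% interval -0.53 to 1.28, adjusted p = 0.564), not past the test. The other Tef probe sets read this gene differently. One had 5.62 and 6.10 in iHepSCs, 7.08 on pHep and 5.49 to 5.73 in MEFs, so that pHep and not iHepSCs stood apart (pHep against MEFs 1.43, adjusted p over all probe sets = 0.00417). The other had 6.82 and 6.83 in iHepSCs, 6.51 on pHep and 6.77, 7.22, 7.80 and 7.32 in MEFs.

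Nfil3 (chr13:52967209-52982878), the repressor of D-box genes, was highest on pHep. It was at 9.01 and 8.99 in iHepSCs, 10.32 on pHep, and 8.78, 8.07, 7.95 and 7.91 in MEFs. The pHep rise over MEFs was 2.15 (standard error 0.34, 4.42-fold, adjusted p = 0.00547). The iHepSC difference from MEFs was 0.82 (95% interval 0.18 to 1.46, adjusted p = 0.0596), or 1.02 without MEF replicate 1 (0.82 to 1.23, adjusted p = 4.78e-05). iHepSCs were below pHep by -1.32 (-2.23 to -0.42, adjusted p = 0.0614), or at adjusted p = 0.000132 without that MEF array. Nfil3 and Dbp therefore stood in opposite order on pHep and iHepSCs, with Nfil3 higher on pHep and Dbp higher in iHepSCs, though neither difference was past the test with all arrays.

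Creb3l3 (chr10:81084329-81098872), whose protein CREBH is made mainly in liver and gut, was at 7.99 and 8.26 in iHepSCs, 9.98 on pHep, and 7.34, 7.60, 8.10 and 7.41 in MEFs. MEF replicate 3 overlapped the iHepSC arrays. pHep was higher than MEFs by 2.37 (standard error 0.30, 5.18-fold, adjusted p = 0.00234) and iHepSCs were lower than pHep by -1.86 (95% interval -2.67 to -1.06, adjusted p = 0.0128, and 0.0751 without the P3 array). The iHepSC difference from MEFs was 0.51 (-0.06 to 1.08, adjusted p = 0.157), or 0.67 without MEF replicate 3 (adjusted p = 0.0305).

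**Figure D2:**
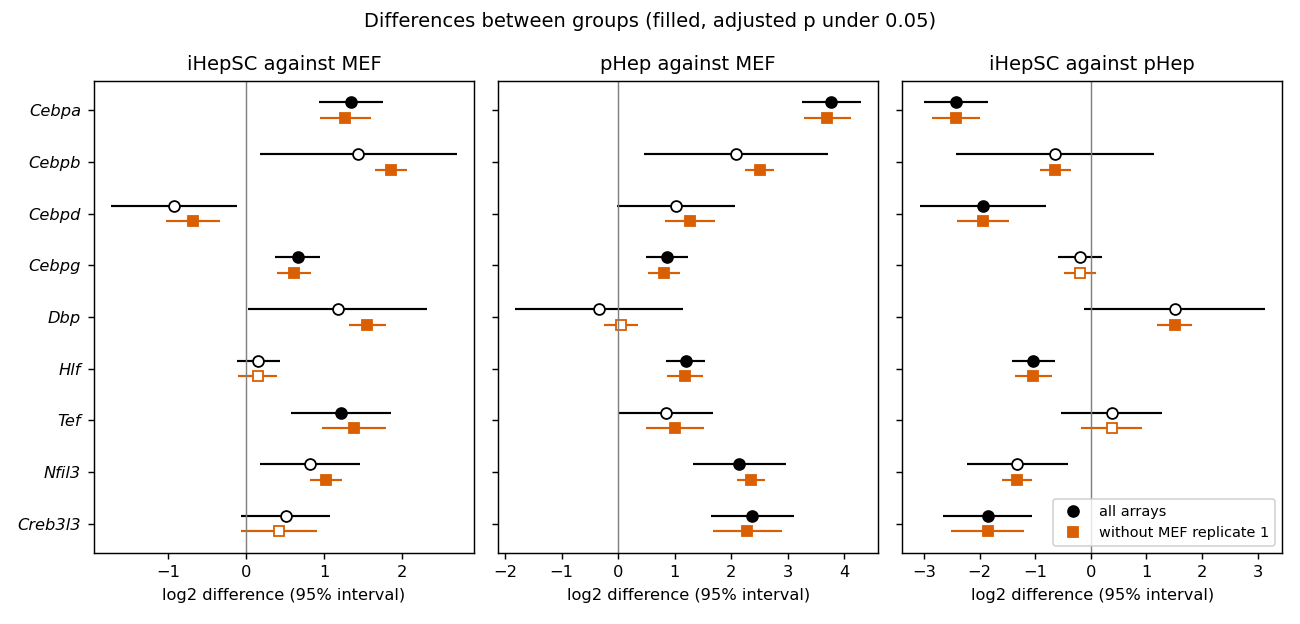
Log2 differences (horizontal axes) with 95% intervals from limma for the 9 genes in 3 comparisons, with all 7 arrays (black circles) and without MEF replicate 1 (orange squares), filled where the adjusted p is under 0.05. The intervals of Cebpb, Dbp and Nfil3 narrow without that array, and those of Hlf stay about as wide.

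MEF replicate 1 lay at least 0.5 above each of the other 3 MEF arrays for 5 of the 9 genes (Cebpb, Cebpd, Dbp, Tef and Nfil3), where 17.6% of all genes did. For Cebpb, Dbp and Nfil3 it was within 0.22 of the mean of iHepSCs. For the other 4 genes it was below or among the other MEF arrays. Counted by overlap, both iHepSC arrays were above all 4 MEF arrays for 6 of the 9 genes, where 26.9% of all genes were, both were below for 1 (23.7% of all genes), and 2 overlapped. Dbp was among the 6 by a narrow margin, with P3 at 9.73 and MEF replicate 1 at 9.71. Its other probe set overlapped, with P20 at 8.53 and MEF replicate 1 at 8.58. The pHep array was above all MEF arrays for 8 of the 9, where 26.9% of all genes were, and above both iHepSC arrays for 7, where 29.9% of all genes were. The higher level of 5 of these genes on MEF replicate 1 stood beside other differences of that array. Its cell division genes were low, and fibroblast markers (median difference 0.83), macrophage markers (0.53) and immediate early and stress genes (0.36) were high. What part these had was not tested.

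Counted over probe sets, 3 of the 17 were higher and 0 lower in iHepSCs than in MEFs, where 22.7% of all probe sets passed in either direction (at an unadjusted p under 0.05, 9 and 2). On pHep 9 of the 17 were higher than in MEFs and 0 lower (27.7% of all; 12 and 1 unadjusted), and 6 of the 17 were lower and 0 higher in iHepSCs than on pHep (15.6% of all; 8 and 1 unadjusted). Without MEF replicate 1, 10 were higher and 3 lower in iHepSCs than in MEFs (24.4% and 23.3% of all probe sets), 13 were higher and 2 lower on pHep (25.4% and 28.3%), and 2 were higher and 10 lower in iHepSCs than on pHep (18.8% and 18.2%). Without iHepSC replicate 2, 1 was higher in iHepSCs than in MEFs (6.42%). Of the 6 genes with more than 1 probe set, those of Cebpb, Cebpg and Dbp gave 1 order of the group means. Those of Hlf differed only in the order of iHepSCs and MEFs, which overlapped, and those of Cebpd and Tef disagreed.

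**Figure D3:**
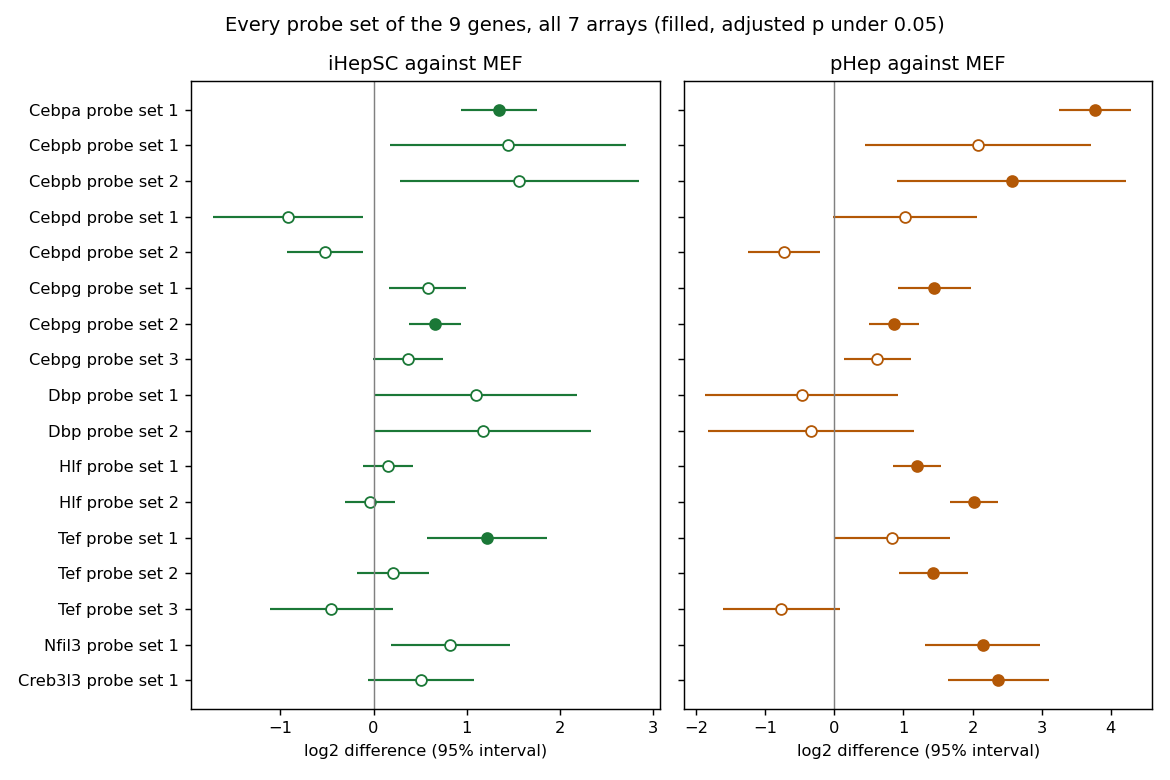
Log2 differences (horizontal axes, with 95% intervals) of all 17 probe sets of the 9 genes for iHepSC against MEF (left) and pHep against MEF (right), filled where the adjusted p over all probe sets is under 0.05. Probe sets of Cebpd and of Tef lie on both sides of 0 on pHep.

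Between the 2 iHepSC arrays the factors differed little, apart from Tef and Cebpd. Tef was 0.61 higher at P20 than at P3, a difference that 2.62% of all genes reached in either direction. Cebpd was 0.49 lower at P20, which 4.64% of genes reached. Both values are of the brightest probe set. The other Tef probe sets differed by 0.49 and 0.02, and the other Cebpd probe set by -0.02. Creb3l3 was 0.27 higher at P20 (17.8% of genes), and the other 6 differed by 0.14 or less. Each passage was measured once, so that these values have no test.

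For the members whose group means spanned at least 2 on the log2 scale, the 3 genes of most similar profile among 2623 such genes were listed, over 7 arrays that share their groups. Cebpa ran closest to Lrg1 (r = 0.996), Camsap3 (0.994) and Slc2a2 (0.993), the last of which encodes the glucose transporter of the hepatocyte. Cebpb ran closest to Trp53inp2 (r = 0.999), Evi5 (0.996) and Marf1 (0.995). Nfil3 ran closest to the repressor gene Bcl6 (r = 0.998), Hfe, a regulator of iron uptake (0.997), and Acad11 (0.996). Creb3l3 was followed less closely by Pdzk1 (r = 0.982), Kyat3 (0.973) and Kcnq1ot1 (0.972).

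The clock genes that control the PAR bZIP genes were read next. Of 16 core clock genes, 4 were higher and 1 lower in iHepSCs than in MEFs, where 18.2% and 13.4% of all genes were. On pHep 5 were higher and 1 lower, where 14.8% and 15.5% of all genes were. Without MEF replicate 1 the counts were 7 and 1, and 8 and 3. The shares of all genes were then 31% and 24.8%, and 27% and 31.6%. Without iHepSC replicate 2, 2 were higher in iHepSCs, and without any 1 array other than MEF replicate 1 and pHep, 2 were higher on pHep. The median difference of the list was 0.14 in iHepSCs and 0.34 on pHep, beside 0.01 and -0.13 over all genes. Per1, a repressor of the clock that glucocorticoids also induce, was at 9.71 and 10.05 in iHepSCs, 9.84 on pHep, and 8.11, 6.77, 6.94 and 6.54 in MEFs (iHepSC difference 2.79, adjusted p = 0.00439). Per2, its partner, was at 8.66 and 8.88 in iHepSCs, 7.84 on pHep, and 6.77, 5.65, 5.58 and 6.16 in MEFs (difference 2.73, adjusted p = 0.00187). Nr1d1, which encodes the repressor REV-ERBα, was lower in iHepSCs, at 6.67 and 6.57, with 6.87 on pHep and 7.79 to 7.98 in MEFs (difference -1.29, adjusted p = 0.000223). Rora, an activator that competes with it, was higher on pHep by 3.98 (adjusted p = 0.0246), at 11.60, with 6.06 and 6.90 in iHepSCs and 9.34, 6.83, 7.13 and 7.22 in MEFs. The genes of the activators, Arntl and Clock, did not pass the test in either comparison with MEFs, with differences of 0.28 and 0.42 in iHepSCs. As the time of day of collection is not given in the sources used here, phase and level of clock genes cannot be told apart.

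**Figure D4:**
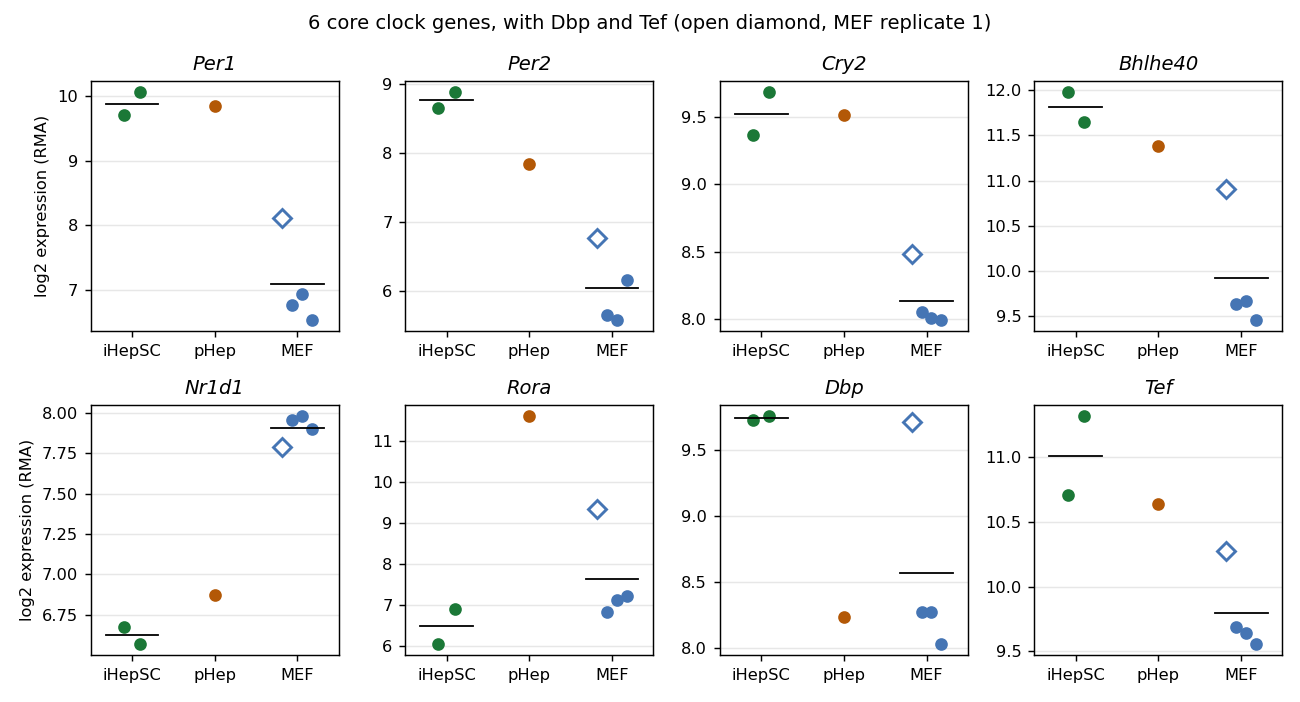
Log2 expression levels (vertical axes, RMA values) of 6 core clock genes and of Dbp and Tef on the iHepSC, pHep and MEF arrays, with black lines at group means and an open diamond for MEF replicate 1. Per1, Per2 and Cry2 are above every MEF array in iHepSCs and on pHep, and Nr1d1 is below every MEF array.

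Genes known as targets of the factors were read in the same fit. Beside them, 18.2% of all genes were higher and 13.4% lower in iHepSCs than in MEFs, and 14.8% and 15.5% on pHep. Without MEF replicate 1 these shares were 31% and 24.8%, and 27% and 31.6%. Between iHepSCs and pHep, 7.89% of all genes were lower in iHepSCs and 9.26% higher (17.3% and 25.4% without MEF replicate 1). Of 9 C/EBPα targets, 4 were higher in iHepSCs than in MEFs (median difference 0.07) and 9 were higher on pHep (median 4.98), 0 being lower in either, and 7 were lower in iHepSCs than on pHep and 0 higher (8 and 0 without MEF replicate 1, which left the counts against MEFs at 4 and 9). At an unadjusted p under 0.05 the lower count was also 0 in both comparisons with MEFs. Alb, encoding albumin, rose by 8.47 in iHepSCs (adjusted p = 2.89e-06) and by 9.54 on pHep, and Otc, an enzyme of the urea cycle, rose by 1.55 (adjusted p = 0.000238). Cps1, the entry enzyme of that cycle, was at 5.67 and 5.98 in iHepSCs, 12.74 on pHep and 4.85 to 5.42 in MEFs. Arg1, its last enzyme, was at 4.93 and 4.40 in iHepSCs, 12.28 on pHep and 4.51 to 5.20 in MEFs, so that iHepSCs and MEFs overlapped.

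Of 5 measured PAR bZIP targets, 1 was higher in iHepSCs and 4 on pHep than in MEFs, with or without MEF replicate 1. The shares of all genes that were higher were 18.2% and 14.8% with that array, and 31% and 27% without it. The gene higher in iHepSCs was Alas1, the first enzyme of heme synthesis, with a difference of 1.33 (adjusted p = 0.00763; not past the test without either iHepSC replicate). On pHep Alas1 rose by 1.70 and Cyp2c50, a drug-metabolizing enzyme, by 1.12. Of 15 acute phase genes, 11 were higher and 1 lower in iHepSCs, and 14 were higher and 1 lower on pHep, with medians of 2.54 and 7.26. Without MEF replicate 1 the counts were 12 and 1, and 14 and 1. The shares of all genes that were lower were 13.4% in iHepSCs and 15.5% on pHep, or 24.8% and 31.6% without that array. Lbp, which binds bacterial lipopolysaccharide, was at 13.35 and 13.43 in iHepSCs, 11.95 on pHep and 6.24 to 6.86 in MEFs, and Hp, encoding haptoglobin, was at 13.29 and 13.48 in iHepSCs, 14.99 on pHep and 6.25 to 7.07 in MEFs. The fibrinogen genes Fga and Fgb rose by 10.07 and 9.95 on pHep. Il1rn, encoding an antagonist of interleukin 1, was the gene that fell, with differences of -1.71 in iHepSCs (adjusted p = 0.0231, and not past the test without MEF replicate 2 or either iHepSC replicate) and -2.79 on pHep.

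Of 9 CREBH targets, 5 were higher in iHepSCs and 8 on pHep than in MEFs, with medians of 1.14 and 5.20 (5 and 8 without MEF replicate 1 too). None, that is 0, were lower, at an unadjusted p under 0.05 too. The lists share genes: some CREBH targets are also counted above among the C/EBPα targets or the acute phase genes. Among all genes, 18.2% were higher and 13.4% lower in iHepSCs, and 14.8% and 15.5% on pHep. Without MEF replicate 1 these shares were 31% and 24.8%, and 27% and 31.6%. Between iHepSCs and pHep, 6 of the 9 targets were lower in iHepSCs, as Creb3l3 was, and 2 were higher (median difference -2.41). Of all genes, 7.89% were lower and 9.26% higher. Apoa4, an apolipoprotein, was at 12.37 and 12.95 in iHepSCs, 8.93 on pHep and 5.20 to 6.05 in MEFs. It was thus 1 of the 2 higher in iHepSCs than on pHep, by 3.73 (adjusted p = 0.00144), the reverse of Creb3l3 itself. Apoc2, the cofactor of lipoprotein lipase, rose by 5.80 in iHepSCs and by 8.21 on pHep, and Apoc3 rose by 8.04 on pHep. Of 10 other CREB3 family genes and factors of endoplasmic reticulum stress, 5 were higher and 1 lower in iHepSCs and 3 were higher and 2 lower on pHep (6 and 2, and 5 and 3, without MEF replicate 1). Without either iHepSC replicate 2 were higher in iHepSCs, without iHepSC replicate 1 0 were lower there, and without any 1 array other than MEF replicate 1 and pHep 2 were higher on pHep. On pHep 1 was lower without MEF replicate 3 or 4 or either iHepSC replicate. Creb3l2 rose by 2.52 in iHepSCs (adjusted p = 0.0023) and by 1.72 on pHep, Herpud1, which acts in the removal of misfolded proteins, rose by 2.28 in iHepSCs and by 2.24 on pHep, and Creb3l1 fell by 1.47 in iHepSCs and fell by 3.20 on pHep. Creb3 itself fell by 0.52 on pHep (adjusted p = 0.0272).

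Of 8 other genes that bind or regulate C/EBP proteins, 1 was higher and 2 lower in iHepSCs, and 2 were higher and 1 lower on pHep. The shares of all genes were 18.2% and 13.4%, and 14.8% and 15.5%. Without MEF replicate 1 the counts were 3 and 3, and 2 and 2, beside 31% and 24.8%, and 27% and 31.6%, of all genes. In iHepSCs 0 were higher without MEF replicate 3 or iHepSC replicate 1 and 1 was lower without iHepSC replicate 2, and on pHep 1 was higher without any 1 array other than MEF replicate 1 and pHep. Trib1, whose protein directs the breakdown of C/EBPα, rose by 0.86 in iHepSCs (adjusted p = 0.017) and by 1.71 on pHep. Trib2, which has the same activity, fell by 1.68 in iHepSCs (adjusted p = 0.00604) and by 3.52 on pHep, and Trib3 fell by 1.02 in iHepSCs. Atf5 rose by 2.30 on pHep (adjusted p = 0.0466), at 12.93, with 10.73 and 10.95 in iHepSCs and 11.89, 10.27, 10.18 and 10.17 in MEFs.

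**Figure D5:**
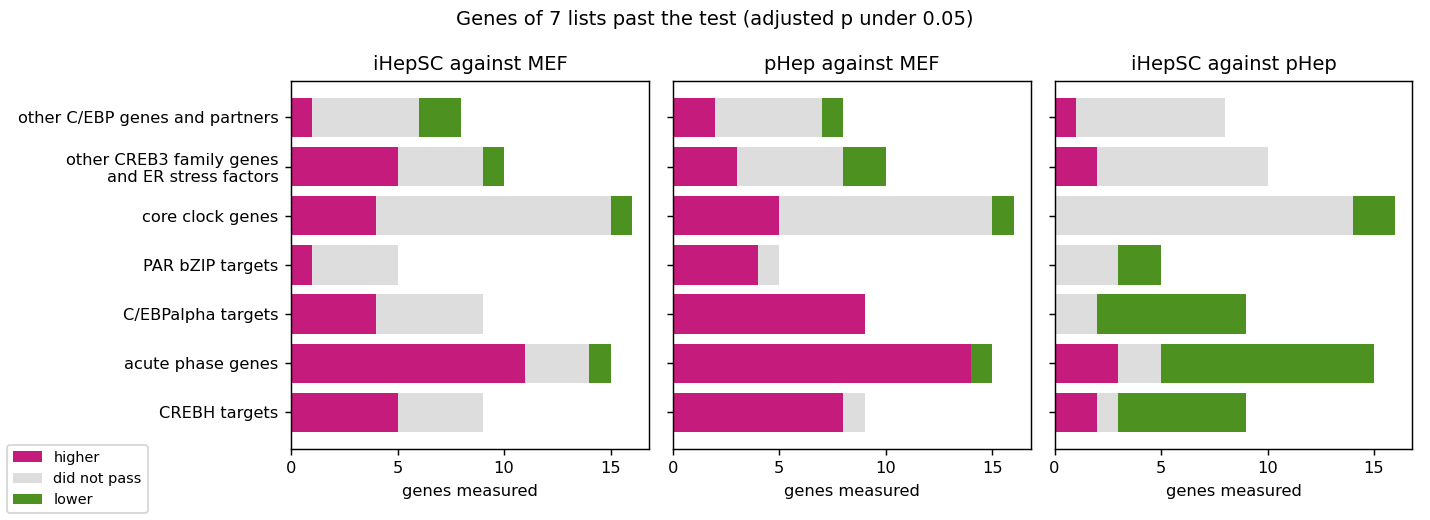
Number of genes measured (horizontal axes) in 7 lists of partners, clock genes and targets of the factors that were higher (purple), lower (green) or did not pass the limma test (grey) in 3 comparisons. All 9 C/EBPα targets are higher on pHep than in MEFs, and 4 of them in iHepSCs, where 14.8% and 18.2% of all genes are.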

How the data were processed

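The authors made the deposited values by Robust Multiarray Analysis (RMA: background correction, quantile normalization and 1 value per probe set), so the unit is log2 expression; the RMA version is not given in the sources used here. RMA compresses small differences of dim probe sets, and array medians lay between 6.28 and 6.33. As arrays have no counts, precision rests on their number, 7 in all.

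The 45101 probe sets were joined to genes through the platform annotation: leaving out 64 controls, 932 with several symbols and 9160 with none, 18193 genes were kept. A limma model (lmFit and eBayes, limma 3.58.1, R 4.3.3) was fitted with 3 group means with 4 residual degrees of freedom (prior 2.11 degrees of freedom, prior SD 0.162); the pHep array adds none. P-values were adjusted by Benjamini and Hochberg over all genes, or over all 45037 probe sets, with a threshold of 0.05. The script was tested on simulated data. Levels were not compared between genes, since probe sets differ in affinity. Motifs and plots were made with Python 3.11.15, pandas 2.3.3 and matplotlib 3.10.9, and sequences are from RefSeq tables of GRCm38.p6.

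The members, the lists of partners, clock genes, targets and markers, and the tests were chosen with earlier results of these data known. Named are all members and their probe sets, up to 2 largest rises and 2 largest falls past the test in each list for iHepSC and for pHep against MEF, the 3 genes of most similar profile for members spanning at least 2, and markers at the top of their list. Arntl, Clock, Cry2, Bhlhe40, Arg1, Clec4f, Cd163, Vsig4, Marco, Cyp2e1 and Alb as a marker were chosen after their values were seen. List genes that the annotation does not hold were not analysed here. Alternatives were averaging the probe sets of each gene, leaving out suffixes _x_at and _s_at, a filter at a log2 level of 6, quantile normalization again, centring on Gapdh or on the median, robust fitting with a trend, fold floors of 1.2 and 2, leaving out each replicate, averaging MEF replicates 2 to 4, the replicate block and the methods' t-test.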

Additional observations from a re-analysis of the deposited data

Results flagged for a closer look

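On MEF replicate 1, 5 probe sets of 3 genes lay far from the other 3 MEF arrays by Dixon's ratio of the gap to the range. The ratio was 0.913 for the brighter Cebpb probe set and 0.866 for the other, 0.882 for the brighter Cebpd probe set, and 0.861 and 0.857 for the dimmer and the brighter Dbp probe sets. In each case replicate 1 was the highest array, by 0.97 (Cebpd) to 1.69 (the dimmer Cebpb probe set) over the mean of the others. Chance gives such a value in about 1 of 20 groups, and probe sets of 1 gene are not independent. That rate is not the background of this array, and the share of all probe sets so flagged was not counted. On MEF replicate 1, 17.6% of all genes lay at least 0.5 above each of the other 3 MEF arrays.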

How the results depend on the processing

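The choice of arrays set most of the dependence. When each replicate was left out in turn, the count of the 9 genes higher in iHepSCs than in MEFs ran from 1 to 6 and of those lower from 0 to 1; for pHep against MEFs 5 to 8 were higher; for iHepSCs against pHep 0 to 1 were higher and 2 to 6 lower. Over the 17 probe sets the ranges were 1 to 10 higher and 0 to 3 lower, 8 to 13 higher and 0 to 2 lower, and 0 to 2 higher and 4 to 10 lower. The top of each range came without MEF replicate 1. Without it, 31% of all genes and 24.4% of all probe sets were higher in iHepSCs than in MEFs, and 24.8% and 23.3% lower. On pHep against MEFs 27% and 25.4% were higher, and 31.6% and 28.3% lower. In iHepSCs against pHep 25.4% and 18.8% were higher, and 17.3% and 18.2% lower. Averaging MEF replicates 2 to 4 as 1 sample leaves 2 residual degrees of freedom. Then 1 gene and 1 probe set were higher in iHepSCs (8.34% of all genes and 5.01% of all probe sets) and 3 genes on pHep (6.82%). Centring each array on Gapdh moves the median of all genes in iHepSCs against MEFs to 0.50. Then 6 genes and 10 probe sets were higher in iHepSCs than in MEFs (25% of all genes and 21.5% of all probe sets). In iHepSCs 2 genes and 3 probe sets were lower than on pHep (3.39% and 3.73%). With the mean of all probe sets or with quantile normalization again, 1 gene (Cebpd) was lower in iHepSCs than in MEFs (13.7% and 14.4% of all genes). With quantile normalization again, median centring or the filter on dim features 1 probe set was lower on pHep (12.5%, 13.2% and 16.6% of all probe sets). The replicate block gave 0 genes and 0 probe sets higher in iHepSCs than in MEFs (4.64% of all genes and 1.82% of all probe sets). On pHep 2 genes and 0 probe sets were higher (2.56% and 1.06%). In iHepSCs 0 genes and 0 probe sets were lower than on pHep (1.42% and 0%), so few features of any kind passed under it. The shared numbers do not pair these samples. Deviations of same-numbered arrays correlated at -0.22 and -0.19, and the iHepSC numbers stand for passages. Signs turned in 3 cases, none past the test: Dbp on pHep against MEFs ran from -0.51 to 0.0445 when each replicate was left out, the last without MEF replicate 1, Cebpg in iHepSCs against pHep was 0.26 with Gapdh centring, and Tef in iHepSCs against pHep was -0.18 with the mean of all probe sets. The methods' t-test called 3 genes higher in iHepSCs than in MEFs at 0.05 and 2 after Benjamini-Hochberg adjustment (21% and 14% of all genes). It called 0 lower (16.4% and 10.6%). The cause of these shifts was not tested. Fold floors of 1.2 and 2, trend and robust fitting and leaving out suffixes moved no count of genes by over 1.5 times.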
